A study of Rattus norvegicus with 84 samples.

Results

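A set of 10 genes of exosome formation and release was followed as mRNA in extracellular vesicles (EVs), the membrane-bound particles that cells shed. They were chosen by name and not by a rule on measured values, although earlier results of these data were known. Among 18782 annotated genes in the deposited tables these were the tetraspanins Cd9 and Cd81, the ESCRT genes Tsg101 and Vps4a, and the ESCRT partner Pdcd6ip. The others were the syndecan adaptor Sdcbp, the flotillins Flot1 and Flot2, and the small GTPases Rab27a and Rab27b. All 10 were found, listed as gene-Cd9 and so on, and all 10 passed the filter on low counts in both tissues. EVs came from the brain and the plasma of the same 21 rats, in 7 groups of 3 rats. A wild-type healthy group had no surgery named in the labels. The control groups, also wild type, had the middle cerebral artery of the right hemisphere occluded for 90 min and were sampled 4, 10, and 31 days poststroke, and according to the methods they received saline 3 days after the occlusion. The hNSCs groups underwent the same occlusion and received human neural stem cells (hNSCs) through the carotid artery on day 3, and were sampled on the same days. The stroke rats were male Sprague–Dawley rats of 8 to 12 weeks. The brain EVs came from the ipsilateral hemisphere as a whole, so infarct and spared tissue were not separated, and there was no sham-operated group, so occlusion and surgery cannot be told apart.

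Exosomes form when the membrane of an endosome buds inward, which yields a multivesicular body filled with small vesicles, and they are released when that body fuses with the plasma membrane. The ESCRT complexes sort cargo and cut the vesicles free. Tetraspanins, syndecan with its adaptor syntenin, ceramide and flotillin-rich membrane offer further routes of sorting and budding, and Rab27 proteins bring the filled endosome to the cell surface. The proteins encoded by Cd9, Cd81, Tsg101 and Pdcd6ip are commonly used to identify EV preparations. What was measured here is the mRNA of these genes inside EVs, not the proteins and not the number of vesicles. A lower value in a bulk library can come from fewer vesicles of a cell type or from less of the mRNA in each vesicle, and these cannot be told apart.

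Brain libraries held 569136 to 15587216 counts on annotated genes (median 3746015), and plasma libraries 6357675 to 31028559. The 10 genes took 0.0483% to 0.0971% of the annotated counts in brain and 0.0913% to 0.378% in plasma. All 10 genes were detected in 21 of 21 plasma libraries but in 16 of 21 brain libraries. The shallowest brain libraries were those labelled hNSCs at 10 days, replicates 3 and 2, with 569136 and 1123445 counts and 6 and 7 of the 10 genes detected. Brain libraries carried brain markers, with neuronal genes at a summed 2629 to 10270 CPM (counts scaled to library size with TMM) and all 6 oligodendrocyte, 5 astrocyte and 6 microglia markers detected. Plasma libraries carried red cell genes at 5441 to 311300 CPM and platelet genes at 663 to 21030 CPM.

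To order the genes by level within a tissue, FPKM was used, which divides by transcript length. In brain EVs the highest mean belonged to Flot1, a raft scaffold protein, at 5.13 FPKM ± 3.60 (SD, n = 21), followed by Sdcbp at 3.76 ± 2.87, Vps4a at 2.95 ± 3.01, Cd81 at 2.53 ± 2.44, Flot2 at 1.47 ± 1.42, Tsg101 at 1.30 ± 1.18, Pdcd6ip at 1.02 ± 0.845, Cd9 at 0.496 ± 0.617, Rab27b at 0.390 ± 0.455 and Rab27a at 0.350 ± 0.443. The genes thus ran from rank 533 for Flot1 to rank 8782 for Rab27a among annotated genes. Neighbours in this order were compared within libraries on log2(FPKM + 1) by a permutation test with adjustment over 9 pairs. Of the 9 pairs, 4 differed, which were Flot1 above Sdcbp (19 of 21 libraries, mean difference 0.39, adjusted p = 0.00108), Sdcbp above Vps4a (17 of 21, 0.35, adjusted p = 0.00081), Cd81 above Flot2 (19 of 21, 0.43, adjusted p = 9e-05) and Pdcd6ip above Cd9 (20 of 21, 0.42, adjusted p = 9e-05, the smallest these permutations gave). For the other 5 pairs the mean difference was at most 0.12, against an SD over libraries of 0.23 to 0.37.

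In plasma EVs the order was different. Sdcbp, which encodes syntenin, led with 50.1 FPKM ± 24.6 (SD, n = 21), and Cd9 came next with 30.6 ± 27.4. Rab27b stood at 21.5 ± 32.4, Rab27a at 13.9 ± 5.55, Flot1 at 13.4 ± 4.63, Flot2 at 10.5 ± 6.16, Tsg101 at 10.4 ± 4.11, Cd81 at 9.84 ± 7.79, Vps4a at 8.73 ± 3.32 and Pdcd6ip at 5.42 ± 2.18. Sdcbp ranked 421 among annotated genes and Pdcd6ip 3092. Again 4 of 9 neighbouring pairs differed, namely Sdcbp above Cd9 (adjusted p = 0.00018), Cd9 above Rab27b (0.00606), Flot1 above Flot2 (0.0147) and Vps4a above Pdcd6ip (0.00027). Over the 12 rats without hNSCs, 2 of 9 pairs differed. FPKM values also depend on how much of a library fell on annotated genes, which was 3.18% to 51.9% in brain and 45.1% to 75.6% in plasma, so levels of a gene in brain and plasma were compared on the TMM scale below.

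To see whether EVs of the brain and of the plasma differ in these genes, all 42 libraries were scaled together with TMM and tested in a single edgeR model of 14 groups. Across the 7 groups, Cd9, Sdcbp, Rab27a, Rab27b, Tsg101 and Flot2 were lower in brain EVs than in plasma EVs, with the widest gaps for Cd9 and the Rab27 genes. Cd81, Vps4a, Pdcd6ip and Flot1 did not pass both limits, which were 0.05 for the adjusted p and 1.5-fold for the size of the change. Of all genes tested, 25.3% were called lower in brain by the same rule and 29% higher, so 6 lower of 10 stood beside a background of 25.3%, and 0 higher of 10 beside 29%.

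Cd9, a tetraspanin that organizes membrane microdomains, ranged from 0 to 20.4 CPM in the 21 brain libraries (median 7.60) and from 38.1 to 617 CPM in the 21 plasma libraries (median 121). Every plasma library was above every brain library, and the ratio of the means was 21.7. The share of all genes tested without overlap between the tissues was not computed, for Cd9 or for the genes below. Nor was the share with the same direction in most rats. Because Cd9 had no counts in the brain libraries of the hNSCs group at 10 days, its change was also estimated without that group, at −4.21 on the log2 scale (SE 0.46, adjusted p = 2.62e-09). Cd81, another tetraspanin and a close partner of Cd9 in the same membrane domains, ranged from 0 to 89.2 CPM in brain and from 18.9 to 180.9 CPM in plasma. It was lower in brain in 12 of 21 rats and higher in 9, with a log2 change of −0.19 and a 95% interval of −0.82 to 0.45.

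Sdcbp ranged from 37.2 to 234.8 CPM in brain (median 132) and from 263.7 to 1263 CPM in plasma (median 396), again without overlap. It was lower in brain in 21 of 21 rats, by 1.96 on the log2 scale (SE 0.20, adjusted p = 1.55e-10). Pdcd6ip encodes ALIX, which joins syntenin to the ESCRT machinery. It lay between 52.0 and 143.8 CPM in brain and between 83.8 and 265.3 CPM in plasma. Its change of −0.54 (SE 0.14, 95% interval −0.82 to −0.26, adjusted p = 0.00103) had the same sign in 20 of 21 rats and fell short of 1.5-fold.

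The ESCRT genes diverged from each other. Tsg101, the ESCRT-I subunit that recognizes ubiquitinated cargo, ranged from 0 to 97.99 CPM in brain and from 35.6 to 127 CPM in plasma, and was lower in brain in 19 of 21 rats (log2 change −1.29, SE 0.30, adjusted p = 0.000436). Vps4a, the ATPase that takes ESCRT-III apart at the end of budding, ranged from 0 to 115 CPM in brain and from 27.0 to 146.7 CPM in plasma. It was lower in brain in 9 rats and higher in 12, with a change of −0.03 and a 95% interval of −0.71 to 0.65. The flotillins also pointed apart. Flot2 was lower in brain in 19 of 21 rats (−1.11, SE 0.19, adjusted p = 4.22e-06), whereas Flot1 was higher in brain in 17 of 21 rats (0.54, SE 0.16, adjusted p = 0.00338), short of 1.5-fold over the 7 groups and past it without the hNSCs group at 10 days (0.60).

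Rab27a and Rab27b dock multivesicular bodies at the plasma membrane. Rab27a ranged from 0 to 28.9 CPM in brain (median 11.6) and from 65.5 to 268 CPM in plasma (median 172), without overlap, and the log2 change was −3.72 (SE 0.34, adjusted p = 1.42e-11). Rab27b ranged from 4.85 to 41.9 CPM in brain and from 10.8 to 3600 CPM in plasma. It was lower in brain in 21 of 21 rats (−3.18, SE 0.40, adjusted p = 2.65e-08), although the lowest plasma library, control at 4 days replicate 2, stood at 10.8 CPM beside 10.2 CPM in the brain of the same rat.

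**Figure D1:**
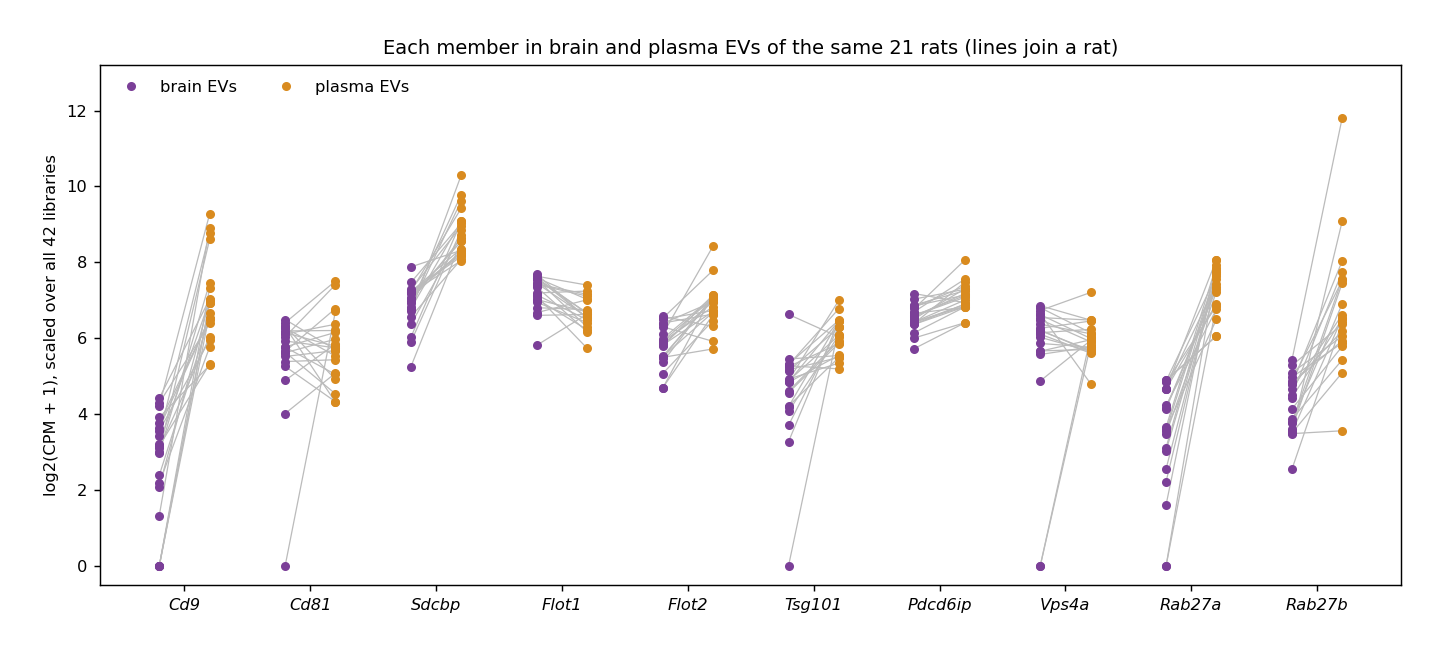
Level of each gene in brain EVs (purple) and plasma EVs (orange) of the 21 rats, as log2(CPM + 1) scaled over all 42 libraries, with a line joining the libraries of a rat. For Cd9, Sdcbp and Rab27a the brain and plasma points do not overlap, while the lines of Cd81 and Vps4a run in both directions.

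The size of the gap depended on the scaling, and for the genes near 0 so did its direction. When counts were divided by the total of all deposited counts, or when limma was run on FPKM, all 10 genes were lower in brain and all 10 were called, beside 57.8% of all genes called in either direction with total counts and 49.7% on log2(FPKM + 1), with Flot1 at −0.70 with total counts and −1.39 on log2(FPKM + 1). The median over all genes tested moved from 0.16 with TMM to −0.94 with total counts and −0.39 on log2(FPKM + 1), and the share of called genes that were higher in brain fell from 53.5% to 32.7% and 13.6%. Leaving out single rats moved all values together as well, since TMM took another library as its reference in most of these fits, and Flot1 then lay between −0.09 and 0.58. The 6 genes called lower were lower and called under each of the 31 alternatives run for them. The order of the gaps also moved, since that of Sdcbp was narrower than those of Rab27a and Rab27b with TMM and wider than both on log2(FPKM + 1).

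**Figure D2:**
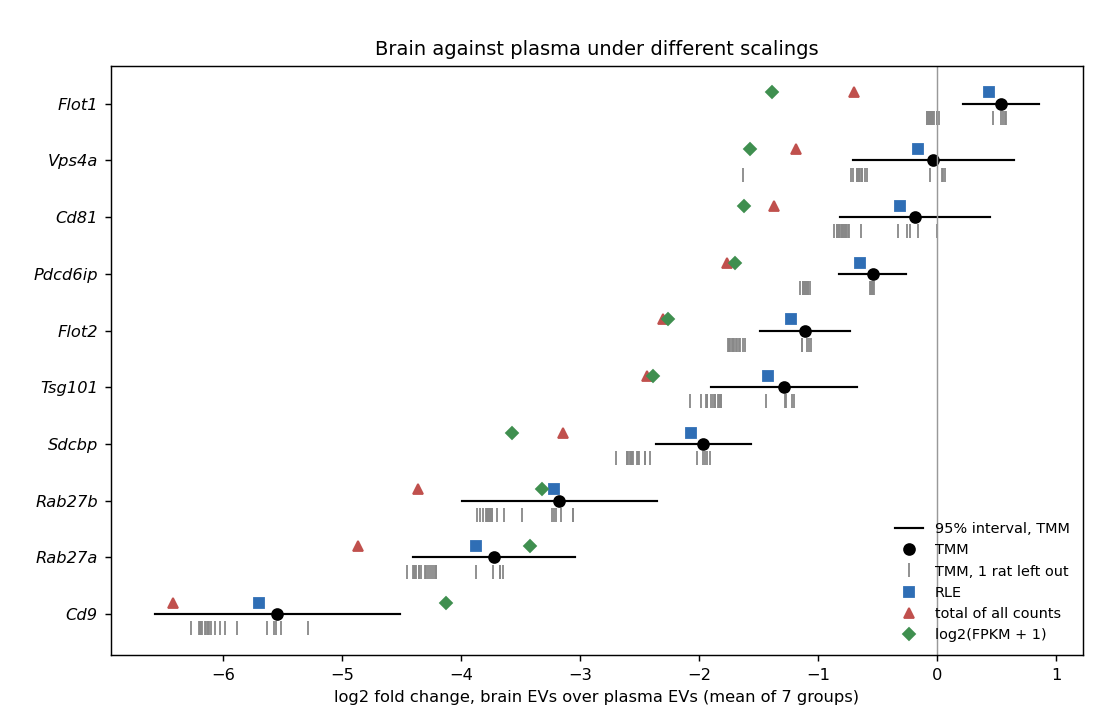
Log2 fold change of brain over plasma EVs for each gene under 4 scalings (TMM with its 95% interval, RLE, total of all counts, and limma on log2(FPKM + 1)), with short grey lines for TMM after leaving out a rat. The 6 lowest genes stay below 0 throughout, Flot1 crosses 0, and the TMM value of Cd9 (−5.55) includes a group without counts.

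In the 3 healthy rats alone, 4 of 10 genes were called lower in brain and 0 higher, beside 10.8% lower and 11.3% higher of all genes tested, 22% in either direction. Rab27a stood at 0, 4.89 and 2.05 CPM in brain and at 231.7, 207 and 264 CPM in plasma (−6.56, SE 1.02, adjusted p = 1.2e-05). Cd9 stood at 3.25, 9.78 and 7.96 CPM in brain and at 126, 435 and 38.9 CPM in plasma (−4.82, SE 1.17, adjusted p = 0.00269). Sdcbp stood at 132, 112 and 94.0 CPM in brain and at 376, 789 and 269.6 CPM in plasma (−2.09, SE 0.52, adjusted p = 0.00329). The groups of 3 did not overlap for any of these genes. The share of all genes tested without such overlap was not computed, here or for the groups without overlap named below. Rab27b was the exception in how it came to be called. Its plasma values were 72.2, 3600 and 42.2 CPM and its brain values 26.6, 41.9 and 13.6 CPM, so a single plasma library carried most of the difference of −5.50 (SE 1.19, adjusted p = 0.000758). Without that rat the change was −2.01 (adjusted p = 0.172), and with the rat as a block, which pairs the tissues of an animal, it was −2.86 (adjusted p = 0.0760), leaving 3 of 10 genes called. Without the 4 rats whose plasma was richest in platelet genes (given below), 2 of 10 genes were called in the healthy group, Rab27a and Cd9, with Sdcbp at −1.51 (adjusted p = 0.0675).

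To determine whether stroke changed these genes in brain EVs, the control groups were compared with the healthy group. By edgeR, 0 of 10 genes passed at 4, 10 or 31 days or for the mean of the 3 days, beside 0.861%, 0.572%, 0.00689% and 0.186% of all genes tested. At an unadjusted p under 0.05 there were 0, 2, 1 and 2 genes, always Rab27a or Flot1, beside 2152, 1840, 1036 and 1784 of the 14515 genes tested. DESeq2 called 0, 0, 0 and 1, the last beside 4.79% of all genes, and limma on log2(FPKM + 1) called 0, 0, 10 and 1, the last 2 beside 57% and 3.16%. The values nearest to a call belonged to Rab27a. It stood at 0, 5.09 and 2.25 CPM in the healthy libraries, at 20.7, 4.17 and 19.9 CPM at 4 days, at 11.5, 33.1 and 9.98 CPM at 10 days, and at 27.9, 28.5 and 17.0 CPM at 31 days. Of the 9 control libraries, 8 lay above all healthy ones, and replicate 2 at 4 days lay between them. The healthy group held 31 reads of Rab27a in all, and a count of 0 in its shallowest library allows up to 2.16 CPM. The mean change over the 3 days was 2.86 on the log2 scale (SE 1.199, 95% interval 0.38 to 5.34, adjusted p = 0.307), which did not pass, while DESeq2 gave 2.90 (adjusted p = 0.0222). Over the alternatives of this value the adjusted p ran from 0.0222 to 0.683. Astrocyte markers summed to 1129 to 1281 CPM in the healthy and 2327 to 4934 CPM in the control libraries, and microglia markers to 52.7 to 92.0 and 103.5 to 1010 CPM, without overlap in either case. Gfap alone made up 78.9% of the astrocyte sum in brain, and Csf1r 46.3% of the microglia sum. Over the 21 brain libraries Rab27a rose with the astrocyte markers (Pearson r = 0.65, permutation p = 0.00272, Spearman rho = 0.63, permutation p = 0.00301), which did not pass over 100 relations (adjusted p = 0.0907 and 0.218), with r = 0.41 without the 2 libraries farthest from the median and 0.22 after group means were removed. For the microglia markers r was 0.55 (permutation p = 0.0106) and rho 0.58 (permutation p = 0.00676), again short of the limit (adjusted p = 0.167 and 0.218), with r = 0.53 without 2 libraries and 0.39 within groups.

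Flot1 moved the other way in value. It stood at 247, 213.5 and 217 CPM in the healthy libraries and between 119 and 218 CPM in the 9 control libraries (median 144), where the highest control library, replicate 2 at 4 days, reached into the healthy range. The mean change was −0.54 (SE 0.26, adjusted p = 0.388). Vps4a stood at 51.6 to 61.8 CPM in the healthy and at 73.0 to 112 CPM in the control libraries, so the ranges did not overlap. Its change of 0.69 (SE 0.72, adjusted p = 0.871) was nevertheless smaller than its error in the edgeR model. That model is fitted over all 21 brain libraries, 2 of them without Vps4a counts, and their part in the error was not tested. Over the alternatives of this change the lowest adjusted p was 0.0485, just under the limit. Sdcbp, Cd81, Tsg101, Flot2 and Cd9 had mean changes of 0.36, 0.53, 1.15, 0.26 and 0.39 and Rab27b of −0.60, each under 1.5 times its SE. Pdcd6ip varied least, between 71.6 and 168 CPM over the 21 brain libraries, a ratio of 2.34, and its mean change was 0.06 (95% interval −0.50 to 0.61).

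**Figure D3:**
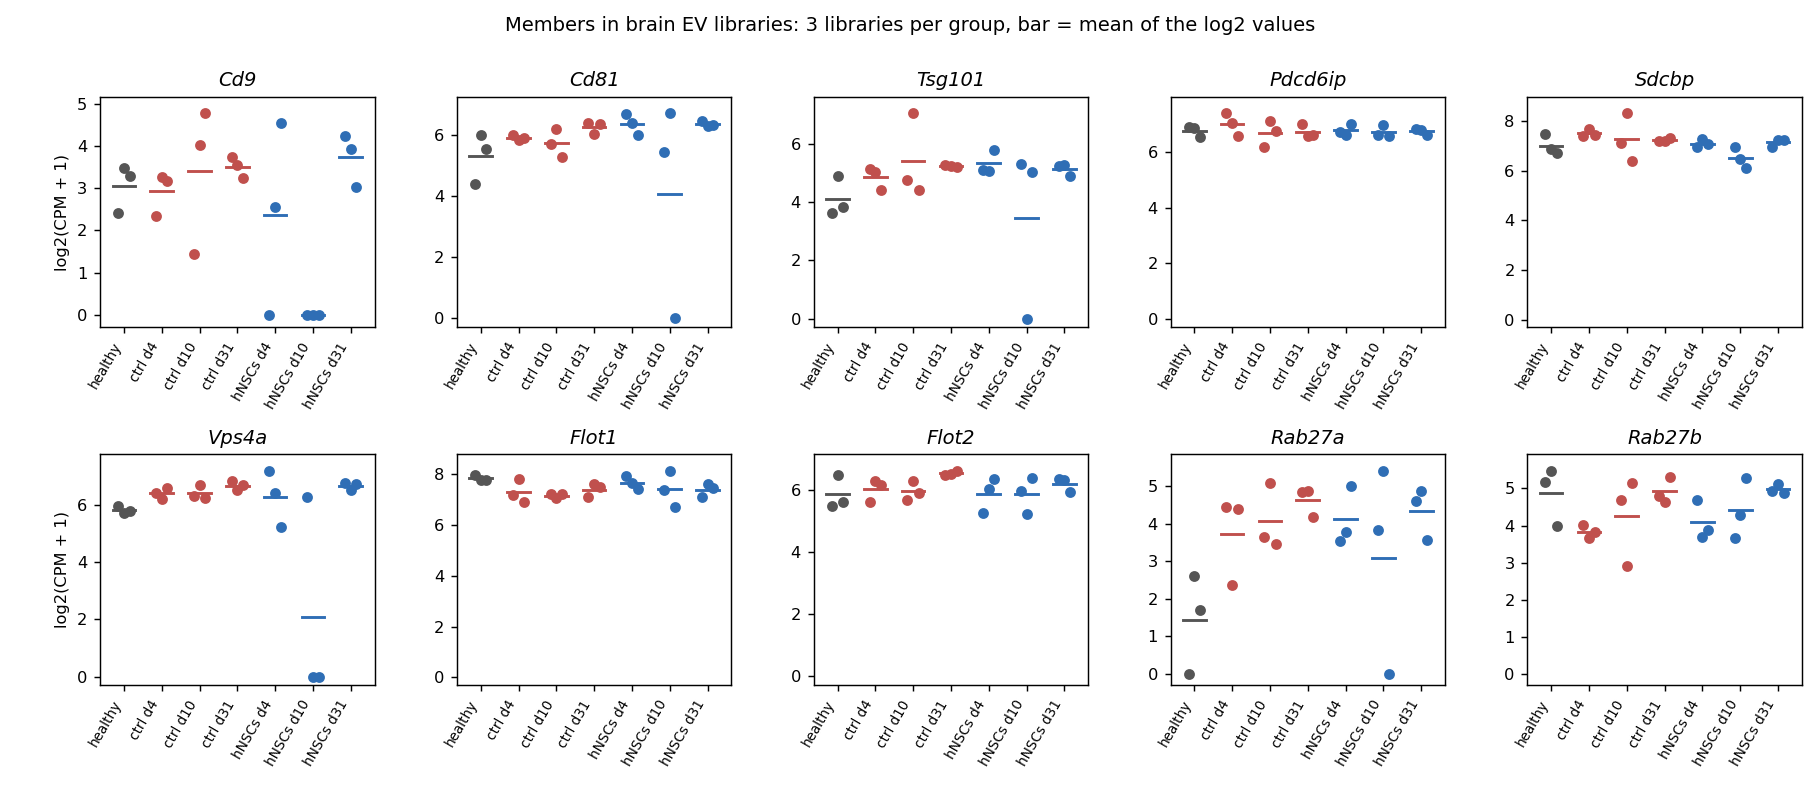
Level of each gene in the 21 brain EV libraries as log2(CPM + 1), with 3 points per group and a bar at their mean (grey healthy, red control, blue hNSCs). Rab27a is lowest in the healthy group, Pdcd6ip is nearly level across groups, and Cd9 has no counts in the 3 libraries of the hNSCs group at 10 days.

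At 31 days the picture depended on the scale. On TMM-scaled counts 7 genes had positive and 3 had negative changes against the healthy group, their median was 0.52 beside 0.24 over all genes tested, and none was called. On log2(FPKM + 1) all 10 were higher at 31 days and all 10 were called, beside 57% of all genes tested, with a median of 1.40 beside 0.69. With library totals in place of TMM all 10 were positive and 0 were called, with a median of 1.87 beside 1.66. The fraction of reads that fell on annotated genes, on which both FPKM and library totals depend, was 29.9% to 51.9% in the brain libraries at 31 days and 3.18% to 25.3% in all other brain libraries. Rab27b (0.63), Pdcd6ip (0.98) and Flot1 (1.37) were the genes whose sign on log2(FPKM + 1) differed from TMM (−0.06, −0.04 and −0.44).

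In plasma EVs, the effect of stroke on the same genes was tested in the same way. None of the 10 genes passed at 4, 10 or 31 days or for the mean of the 3 days, beside 0.0679%, 0%, 0% and 0% of all genes tested. With no limit beyond an unadjusted p under 0.05, edgeR gave 2, 1, 3 and 1 genes, beside 862, 825, 699 and 1414 of the 14720 tested, and DESeq2 and limma called 0. The lowest p belonged to Rab27b, which stood at 58.0, 3071 and 34.7 CPM in the healthy libraries and between 9.49 and 238.9 CPM in the control libraries (median 78.3). Healthy replicate 2 held 35218 reads of Rab27b and stood apart from the other 20 plasma libraries, of which the highest reached 456 CPM. The mean change of −3.42 (SE 0.88, adjusted p = 0.271) turned to 1.09 (adjusted p = 1.00) without that library.

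Rab27a went down in value where it went up in brain, at 186, 176 and 217 CPM in the healthy plasma libraries and 53.9, 52.6 and 134 CPM in the control libraries at 31 days, so the groups did not overlap. The change was −1.27 (SE 0.45, adjusted p = 0.844) and did not pass. Cd81 at 31 days had 2 high libraries, at 148 and 136 CPM, and a low library at 24.98 CPM, below the healthy values of 26.4, 45.0 and 34.8 CPM (1.54, SE 0.69, adjusted p = 0.844). Flot2 at 4 days stood at 117, 300.9 and 113 CPM, without overlap above the healthy values of 70.2, 83.98 and 111 CPM (1.00, SE 0.48, adjusted p = 0.743). The other 6 genes had unadjusted p values of 0.233 or more in edgeR at each day, and Pdcd6ip, at −0.27 for the mean of the 3 days, had a 95% interval of −0.84 to 0.31.

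**Figure D4:**
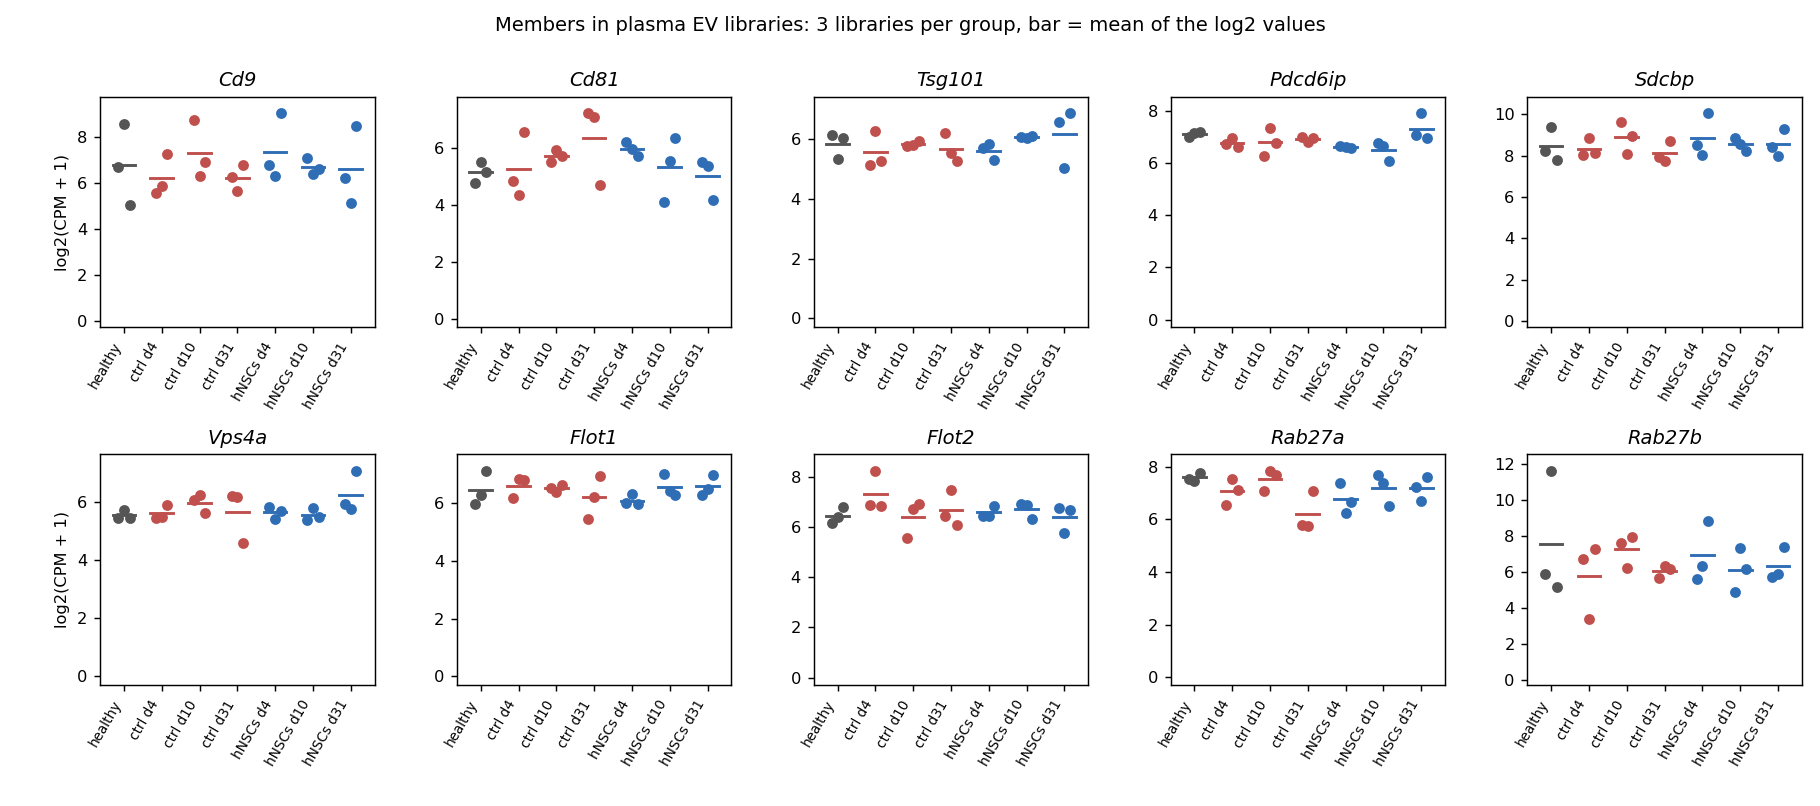
Level of each gene in the 21 plasma EV libraries as log2(CPM + 1), with 3 points per group and a bar at their mean (grey healthy, red control, blue hNSCs). The spread within groups is wide, the 3 Rab27a points of control at 31 days lie below the healthy ones, and the highest Rab27b point is healthy replicate 2, at 3071 CPM.

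Whether the response to stroke differed between brain and plasma was tested as an interaction. No gene of the 10 passed at 4, 10 or 31 days, beside 0.159%, 0.13% and 0.0177% of all genes tested. At an unadjusted p under 0.05 edgeR gave 1, 1 and 2 genes, beside 1753, 1836 and 1704 of the 16945 tested. DESeq2 called 0, 0 and 1, the last beside 6.03% of all genes, and limma on log2(FPKM + 1) called 0, 0 and 2, the last beside 10.8%. Rab27a had the largest differences, brain minus plasma, with 2.92 at 4 days (SE 1.17, adjusted p = 0.325), 2.65 at 10 days (SE 1.17, adjusted p = 0.384) and 4.61 at 31 days (SE 1.19, adjusted p = 0.183). At 31 days DESeq2 gave 4.06 (adjusted p = 0.000777). Rab27b differed by 4.09 at 31 days (SE 1.44, adjusted p = 0.327), which became −0.22 without the healthy rat named above. The median over all genes tested was 0.71 at 31 days.

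The effect of hNSCs was tested against the control group of the same day. In brain EVs edgeR called 0 of 10 genes at 4, 10 and 31 days and for the mean of the 3 days, as it called 0% of all genes tested. At an unadjusted p under 0.05 there were 0, 2, 0 and 2 genes, namely Cd9 and Sdcbp, and 1093, 1945, 13 and 1115 genes of the 14515 tested, while DESeq2 called 0, 1, 0 and 0 of the 10. The share of all genes that DESeq2 called is not given here, so its 1 call stands without a background. Cd9 had no reads in any of the 3 hNSCs libraries at 10 days. The control libraries at 10 days held 4, 33 and 40 reads, or 1.70, 15.4 and 26.6 CPM. A count of 0 allows up to 1.07, 2.66 and 4.52 CPM in the 3 libraries, so replicate 1 of the control group was within what these depths could miss. Against a floor of 3 counts over the group, Cd9 was at least 19.7-fold lower than in the control group, a limit that covers counting error only and rests largely on the deepest hNSCs library. Without hNSCs replicate 1 the limit was 7.67-fold, without control replicate 3 it was 12.7-fold and without control replicate 1 it was 30.7-fold. The edgeR test did not pass (adjusted p = 0.242), and DESeq2 did (adjusted p = 0.00285). At 4 days Cd9 stood at 0, 4.84 and 22.6 CPM in the hNSCs libraries, and at 31 days at 18.0, 14.2 and 7.14 CPM beside 12.3, 10.7 and 8.52 CPM in the control libraries, so that the groups overlapped on both days.

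Cd9 was not alone in being unread there. In the hNSCs libraries at 10 days Vps4a had 217, 0 and 0 reads, Tsg101 had 109, 0 and 21, Cd81 had 119, 116 and 0, and Rab27a had 37, 47 and 0. The libraries at 0 were the 2 shallowest, where 3 reads correspond to 2.66 and 4.52 CPM, far under the 77.1 CPM of Vps4a in replicate 1. Vps4a gave −1.62 (SE 0.87, adjusted p = 0.422) with all libraries and −0.15 (adjusted p = 1.00) without the 2 shallowest, whereas without replicate 1 it was called, both remaining libraries being at 0. Sdcbp, which was read in every library, stood at 124, 87.0 and 67.8 CPM in the hNSCs group at 10 days and at 136, 316 and 83.8 CPM in the control group (−0.94, SE 0.38, adjusted p = 0.329). The groups overlapped, and without control replicate 2 the change was −0.24. The median over all genes tested was −0.34 in this comparison.

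In plasma EVs the effect of hNSCs passed for 0 of 10 genes at each day and for the mean, beside 0.00679% of all genes at 4 days and 0% otherwise. At an unadjusted p under 0.05 edgeR gave 0, 0, 1 and 0 genes, beside 580, 598, 1261 and 961 of the 14720 tested, and DESeq2 and limma called 0. The 1 gene was Cd81 at 31 days, at 44.3, 40.5 and 17.2 CPM in the hNSCs libraries and at 148, 136 and 24.98 CPM in the control libraries (−1.60, SE 0.69, adjusted p = 0.522). The Rab27a libraries at 31 days stood at 149, 102 and 196 CPM with hNSCs and at 53.9, 52.6 and 134 CPM in the control group (0.90, SE 0.45, adjusted p = 0.522). Both pairs of groups overlapped. A difference in the effect of hNSCs between days passed for 0 of 10 genes in either tissue by edgeR, beside 0% of all genes tested in brain and 0.00679%, 0.00679% and 0% in plasma. At an unadjusted p under 0.05 there was 1 gene in brain between 10 and 4 days and 1 between 31 and 10 days, in each case Cd9, beside 1252 and 905 of the 14515 genes tested, and 0 genes in plasma. DESeq2 called Cd9 in both, and the share of all genes it called is again not given. The test over all 7 groups at once called 0 of 10 genes in brain, beside 2.09% of all genes tested, and 0 of 10 in plasma, beside 0.584%. At an unadjusted p under 0.05 that test gave 0 genes in brain and 1 in plasma, Rab27b, beside 2441 and 734 genes in all. DESeq2 called 0 in both, and limma on log2(FPKM + 1) called 10 in brain, beside 88.5% of all genes, and 0 in plasma.

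Blood platelets carry CD9 and release EVs, and platelet markers differed greatly between the plasma libraries. The 6 markers summed to 13430 to 21030 CPM in 4 libraries, which were healthy replicate 2, control at 10 days replicate 1, hNSCs at 4 days replicate 3 and hNSCs at 31 days replicate 3, and to 663 to 5452 CPM (median 1480) in the other 17. Pf4 made up 88.4% of the summed level. In these 4 libraries Cd9 stood at 353 to 517 CPM, against 32.0 to 150 CPM in the other 17, and Sdcbp at 626 to 1058 CPM, against 212 to 491 CPM. Rab27b stood at 167 to 3071 CPM, against 9.49 to 238.9 CPM. The 4 libraries came from 4 groups, and the sets were defined after the values had been seen. Within the other 17 libraries, log2(CPM + 1) of Cd9 rose with that of the platelet markers (Pearson r = 0.68, permutation p = 0.00288, Spearman rho = 0.68, permutation p = 0.00276, adjusted p = 0.0288 and 0.0276 over 10 genes), with r = 0.59 without the 2 libraries farthest from the median. The same r was 0.42 for Rab27b, 0.25 for Sdcbp and −0.54 for Pdcd6ip (adjusted p = 0.309, 0.651 and 0.112). In brain EVs platelet markers summed to 0 to 57.4 CPM with Ppbp at 0 in all libraries. Cd9 also rose over the 21 libraries with Nrgn, which made up 94.2% of the neuronal markers in plasma (r = 0.92 and rho = 0.80 for the summed markers, permutation p = 1e-05 and 4e-05, adjusted p = 0.0005 and 0.00167, r = 0.87 without 2 libraries). The part of platelet RNA in the gap between brain and plasma was not tested.

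Cd81 in plasma went with liver genes instead. Over 21 libraries it rose with the summed level of Alb, Apoa1, Ttr, Serpina1 and Fgb, which ran from 120 to 30340 CPM (Pearson r = 0.69, permutation p = 0.00048, Spearman rho = 0.78, permutation p = 5e-05, adjusted p = 0.006 and 0.00167 over 100 relations). The r was 0.59 without the 2 libraries farthest from the median and 0.61 after group means were removed. Its highest plasma libraries, control at 31 days replicates 1 and 2, thus lie at the upper end of the liver markers.

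**Figure D5:**
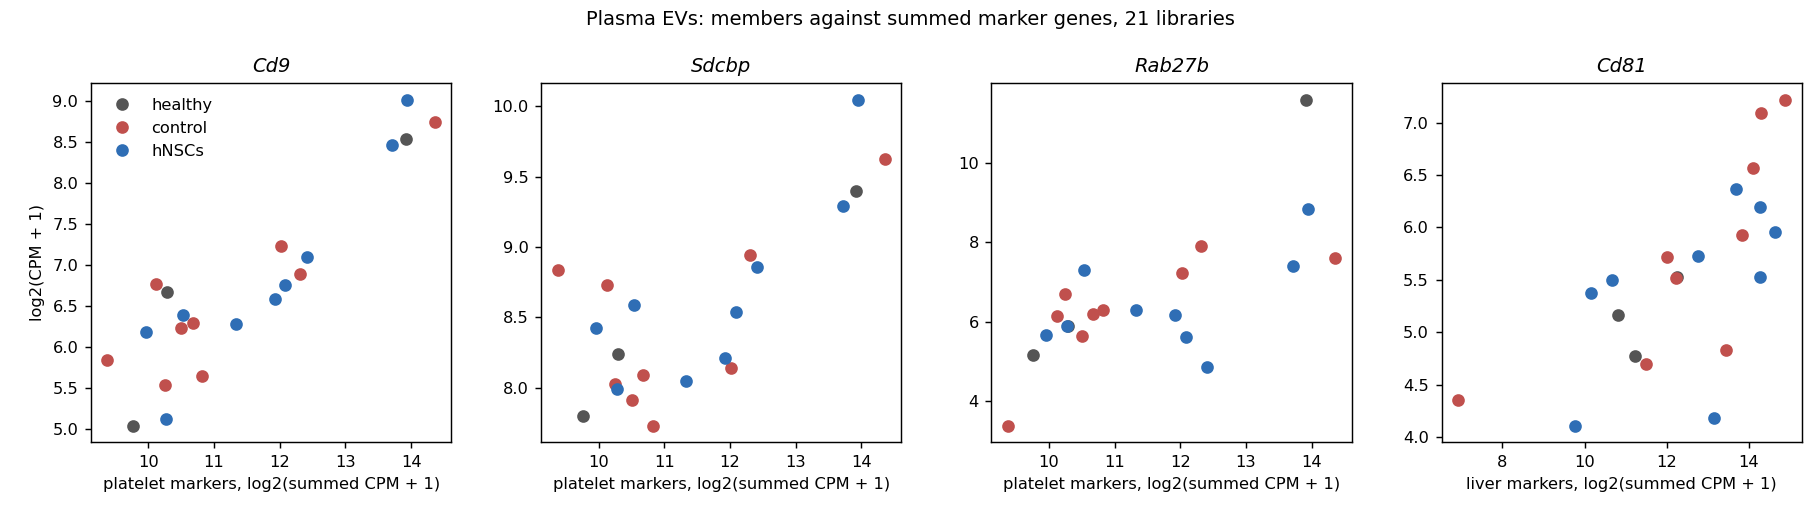
Levels of Cd9, Sdcbp and Rab27b against the summed platelet markers and of Cd81 against the summed liver markers in the 21 plasma libraries, all as log2(CPM + 1) and colored by arm. The 4 libraries at the right end of the platelet axis hold the highest Cd9 and Sdcbp values.

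Whether brain and plasma levels of a gene went together in the same rat was tested over 21 rats. Pearson r of log2(CPM + 1) lay between −0.26 for Rab27a and 0.32 for Rab27b, and 0 of 10 genes passed (permutation test, lowest adjusted p = 0.845). Spearman rho was largest for Vps4a, at 0.48 (permutation p = 0.0305, adjusted p = 0.305).

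Among themselves the 10 genes varied together only in a few pairs, given here as descriptions over the 21 libraries of a tissue, which share depth and normalization. The highest r in plasma joined Cd9 and Sdcbp (0.88), and Cd9 and Rab27b followed (0.67). In brain it joined Cd81 and Rab27a (0.73), both without counts in replicate 3 of the hNSCs group at 10 days. The median over 45 pairs was 0.16 in brain and 0.04 in plasma. The 3 annotated genes whose pattern was most like each of the 10 were also found over the 21 libraries. For Cd9 in plasma they were Clec1b (r = 0.93), a receptor of platelets, B2m (0.93) and LOC100912228 (0.93). For Rab27b they were Itgb3 (0.92), the beta subunit of the platelet fibrinogen receptor, Ptpn11 (0.90) and Src (0.90). For Sdcbp they were Rgs10 (0.90), Rac1 (0.88) and Cd9 (0.88). Rab27a in plasma was nearest to Ccdc88b (0.89), Stk17b (0.81) and Apbb1ip (0.80), and Cd81 to Lect2 (0.85), a factor secreted by the liver, Ski (0.83) and Ahnak (0.81). In brain Rab27a was nearest to Hk2 (0.92), Slfn13 (0.90) and Cp (0.89), and Rab27b to Scn3b (0.83), a sodium channel subunit, Zcchc12 (0.80) and Tceal5 (0.79). The highest values in brain were 0.97, for Cd81 with Ctbp2 and for Vps4a with Cct6a. Cd81 had no counts in 1 brain library, and Vps4a and Rab27a had none in 2 each. Libraries at 0 weigh heavily in such an r, and values without them were not computed.

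The other genes of the pathway gave a background for the 10. In brain against plasma over the 7 groups, 10 of 21 other tetraspanins were lower and 3 higher in brain, 13 of 27 other ESCRT genes were lower and 3 higher, 7 of 13 syndecan, ceramide and raft genes were lower and 3 higher, and 11 of 23 Rab and secretion genes were lower and 4 higher. Of 3 genes listed for other proteins that the study blotted, among them Hspa1a and Hspa8, 1 was lower and 1 higher. The study named its blotted protein only as HSP70, without a gene. The medians of the first 4 lists were −1.65, −0.73, −1.53 and −0.86 on the log2 scale beside 0.16 over all genes tested, and 25.3% of all genes were called lower. Hpse, the heparanase that trims syndecan chains, averaged 1.04 CPM ± 1.47 in brain and 71.8 ± 75.5 in plasma (SD, n = 21). Tbc1d10c, a GTPase-activating protein, averaged 0.576 CPM ± 1.23 and 36.5 ± 31.5, and the tetraspanin Tspan8 averaged 0.819 ± 1.45 and 19.9 ± 14.8. Vps37d, an ESCRT-I subunit, went the other way with 30.4 CPM ± 11.5 in brain and 2.88 ± 9.21 in plasma, where 15 of 21 libraries had no counts of it.

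In the 3 healthy rats the same lists held 3 lower and 1 higher of 21, 3 and 0 of 27, 4 and 1 of 13 and 7 and 1 of 23. Of all genes tested in that comparison, 10.8% were called lower in brain and 11.3% higher. The lower genes of the tetraspanin and ESCRT lists thus stood near the background. The 4 pathway genes with the largest changes there were Hpse, the leukocyte tetraspanin Cd53, Tbc1d10c and the syndecan Sdc1. None of these 4 had a read in the healthy brain libraries, and in healthy plasma they averaged 119 ± 155, 98.9 ± 36.7, 57.8 ± 29.1 and 11.8 ± 8.09 CPM (SD, n = 3). Cd63, the tetraspanin of late endosomes that stands beside Cd9 and Cd81 as an EV marker, averaged 30.0 CPM ± 24.1 in brain and 79.4 ± 48.3 in plasma (log2 change over the 7 groups −1.49, SE 0.45, adjusted p = 0.00522 in edgeR). Markers of T cells summed to 0 to 6.51 CPM in brain, with Cd3e, Cd3d and Cd2 at 0, and to 10.3 to 416 CPM in plasma, and their part in these gaps was not tested.

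Within a tissue, pathway genes passed in few tests. In brain at 4 days after stroke Hspa1a, which encodes an inducible HSP70 chaperone found in EVs, rose from 23.7, 11.1 and 16.9 CPM in the healthy libraries to 299, 114 and 129 CPM (log2 change 3.41, SE 0.66, adjusted p = 0.0155), without overlap. Among the pathway genes outside the 10, it alone was called by edgeR in the comparisons of the control groups with the healthy group and of the hNSCs groups with the control groups. The test over all 7 groups called Hspa1a (adjusted p = 0.00782), the constitutive chaperone Hspa8 (0.0330) and the small GTPase Rab31 (0.0369) in brain and the tetraspanin Tspan33 (0.0422) in plasma. Of all genes tested, 0.861% were called in brain at 4 days, and 2.09% in brain and 0.584% in plasma over all 7 groups. Whether the pathway lists differ from these shares was not tested. Rab31 stood at 25.1 to 54.3 CPM in the healthy brain libraries and at 98.5 to 156 CPM in the control libraries at 4 days. At 10 days it stood at 53.7 to 187.5 CPM in the control libraries and at 31.3 to 45.2 CPM in the hNSCs libraries, those in which Cd9 was at 0. In the hNSCs libraries at 4 days it stood at 116 to 180 CPM. Hspa8 stood at 451 to 813 CPM in the control and 585 to 914.5 CPM in the hNSCs libraries at 31 days, and at 46.65 to 562 CPM in the other brain libraries. Tspan33 had no reads in the 3 plasma libraries of the hNSCs group at 4 days and stood at 63.0, 216 and 173.7 CPM with hNSCs at 31 days. The control plasma libraries at 4 days were low as well, at 0, 22.8 and 4.56 CPM, and the healthy ones stood at 7.32, 4.97 and 46.3 CPM. At 31 days the control libraries stood at 18.6, 19.9 and 16.0 CPM.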

How the data were processed

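EV mRNA was sequenced from brain and plasma of 21 rats, in 42 libraries. The authors aligned reads to Rnor_6.0 with Bowtie2 and deposited raw counts per gene, together with FPKM values computed by StringTie. The authors' counting tool, its strand setting and versions are not given in the sources used here, so reads of overlapping or antisense genes cannot be told apart. Genes without annotation were left out of library sizes and tests, and the annotated share of a library was 3.18% to 51.9% for brain and 45.1% to 75.6% for plasma. Low counts were removed with filterByExpr. Counts were scaled with TMM and tested with the quasi-likelihood test of edgeR 4.0.16 (R 4.3.3) in a model of 7 groups per tissue, or of 14 groups for brain against plasma. A call needed a Benjamini-Hochberg adjusted p under 0.05 over all genes tested and a change over 1.5-fold, while interactions and the test over all groups needed the adjusted p alone. Adjusted p-values just below 1 were written as 1. Levels of genes and correlations were tested with 100000 permutations, two-sided, on log2(value + 1). Alternatives were DESeq2 1.42.0, RLE factors, total counts, no filter, limma 3.58.1 on log2(FPKM + 1) and log2(FPKM + 0.1), only the groups compared, hemoglobin genes left out, a replicate block and leaving out each rat. The fits were tested on simulated data.

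The genes and lists were chosen with earlier results of these data known. Named pathway genes were those with the largest changes among the called genes of the lists. Cd63, T cell, astrocyte and microglia markers and Nrgn were named after their values had been seen. Brain and plasma libraries were paired by the animal number in the labels, and deviations from group means correlated between the tissues of a rat at −0.02 to 0.04. Nothing in the sources says whether libraries were prepared in batches. The 95% intervals come from the edgeR model and include variation between rats but not the choice of scaling. Limits drawn from a count of 0 cover counting error only. Small RNA libraries were not used here.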

Additional observations from a re-analysis of the deposited data

Results flagged for a closer look

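At 4 and 31 days after stroke every control library had a Rab27a value above the healthy mean in brain EVs and below it in plasma EVs. At 4 days the control libraries stood 3.01, 0.93 and 2.95 above the healthy mean in brain and −1.06, −0.05 and −0.46 from it in plasma, on the log2 scale, and the difference between the tissues was 2.92 (SE 1.17, edgeR adjusted p = 0.325). At 31 days they stood 3.42, 3.45 and 2.74 above it in brain and −1.82, −1.85 and −0.52 from it in plasma, and the difference was 4.61 (SE 1.19, edgeR adjusted p = 0.183). The test of the difference did not pass on either day. At 10 days the plasma values were mixed, at 133, 229 and 203 CPM in the control libraries beside 186, 176 and 217 CPM in the healthy ones, and the difference was 2.65 (edgeR adjusted p = 0.384). At 31 days DESeq2 gave an adjusted p of 0.000777, and the rat as a block gave 0.996. The healthy brain libraries held 0, 23 and 8 reads of Rab27a. Groups of 3 rats are too small for a test of single outlying libraries.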

How the results depend on the processing

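Of 577 alternative counts of called genes, 549 stayed within 1.5 times the reported count. DESeq2 called 1 gene where edgeR called 0 for stroke in brain over the 3 days, for hNSCs in brain at 10 days, for the effect of hNSCs at 10 against 4 and 31 against 10 days, and for the brain-plasma difference at 31 days. Limma on FPKM called 10 genes with either pseudocount in brain at 31 days, over all 7 brain groups, and in brain against plasma in the healthy rats and over the 7 groups, 1 gene for stroke in brain over the 3 days, and 2 or 1 for the brain-plasma difference at 31 days. Total counts called 4 genes over all 7 brain groups, 7 in healthy rats and 10 over the 7 groups in brain against plasma, and 1 for the difference at 31 days. Leaving out rats gave 4 to 6 genes in healthy rats and 6 to 8 over the 7 groups, and 0 to 1 for hNSCs in brain at 10 days and over the 3 days, for the 2 differences between days and over all 7 brain groups, the 1 being Vps4a without hNSCs at 10 days replicate 1. Without the 4 platelet-rich rats, an alternative added after seeing the data like those without the 2 shallowest brain libraries or the hNSCs group at 10 days and the limits on Cd9 without single libraries, 2 genes were called in healthy rats. The share of all genes called is given above for only some of these settings. It is not given for the fits with rats left out or for limma in healthy rats. With total counts it is given only over the 7 groups in brain against plasma. Counts without such a share stand without a background and are not a result about these genes. Over the 12 rats without hNSCs, 2 neighbouring pairs differed in plasma. On log2(FPKM + 1) and log2(FPKM + 0.1), changes reversed for Pdcd6ip (0.98 and 1.83), Flot1 (1.37 and 1.62) and Rab27b (0.63 and 1.77) in brain at 31 days, and for Flot1 in brain against plasma, in healthy rats (−1.75 and −2.02) and over the 7 groups (−1.39 and −1.63, and −0.70 with total counts). The cause of these changes was not tested. Depth limits the brain libraries most, where 3 reads stood for up to 4.52 CPM.

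Brain and plasma of a rat are paired, and with the rat as a block 3 genes were called in healthy rats, Rab27b being lost at −2.86, while over the 7 groups 6 were called, and no other call changed. Replicate numbers within a tissue were not taken to pair rats across groups, since each rat belongs to a single group in the labels. Samples with the same number had a median correlation of −0.01 in both tissues, and 10 of 21 brain and 2 of 21 plasma libraries went best with their own number. These correlations cannot decide whether samples with the same number share a batch, since even brain and plasma of the same rat correlated at −0.02 to 0.04. A replicate block within a tissue called 0 of 10 genes in every comparison.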
